A study of Mus musculus with 2 samples.

Results

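Cells of the mesothelium and coelomic epithelium were selected from 2 single-cell RNA libraries of mouse embryos by the counts of 6 genes. A cell barcode was a member when it held at least 3 UMIs of Upk3b, at least 2 UMIs of Krt18 and Krt19 together, none of Nr5a1, at most 1 of Barx1 and none of Hnf4a. UMIs are unique molecular identifiers, each of which stands for 1 captured transcript. Barcodes were first filtered for 2000 UMIs or more, 500 genes or more and a mitochondrial share of 10% or less. The gate held 399 of the 8907 filtered barcodes at embryonic day E11.5 (4.48%, 95% CI 4.06 to 4.93) and 290 of the 7665 at E10.5 (3.78%, 3.37 to 4.24), which makes 689 of 16572 in all. The share at E11.5 was 1.18-fold that at E10.5 (95% CI 1.02 to 1.38). This fold depends on the gate. Filtered barcodes with at least 3 UMIs of Upk3b numbered 590 at E11.5 and 488 at E10.5 before the other conditions. The Nr5a1 condition on its own barred 30 barcodes at E11.5 and 87 at E10.5, and the fold without it was not computed.

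The study profiled tissue in which blood stem cells form and to which they move. The E11.5 library and the E10.5 library were each made from C57BL/6 embryos of that day, and each combined the dorsal aorta and the tissue around it with the fetal liver. The number of embryos is not given in the sources used here, and the labels name no other allele or agent. With 1 library for each day the stages could not be tested against each other. Cells were not used as replicates, and every interval given here is an exact 95% interval that covers counting error only. Stage, library and the piece of tissue taken cannot be told apart.

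The libraries held 159619785 UMIs over 12289 barcodes at E11.5 and 151474708 UMIs over 10996 barcodes at E10.5. Members had a median of 15342 UMIs and 4382 genes at E11.5, against 19318.5 UMIs and 4725 genes at E10.5. Mitochondrial genes took a median of 4.14% of member UMIs at E11.5 and 4.13% at E10.5. No member barcode was found among the members of both libraries, although 17 barcode sequences passed the filter in both.

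The coelomic epithelium is the sheet of mesodermal cells that lines the body cavity of the embryo, and the mesothelium is the polarised surface layer that it forms over the liver, gut, gonads and body wall. These cells rest on a basement membrane, hold keratins together with vimentin, and make retinoic acid and growth factors that act on the organs beneath them. Some of them leave the sheet by an epithelial-mesenchymal transition and give rise to fibroblasts, mural cells and, in the liver, stellate cells.

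The genes of the gate are described without a test, because they chose the cells. Upk3b encodes a uroplakin, a membrane protein that is also made by bladder epithelium and mesothelium. Its summed level in members, in CPM (summed UMIs scaled to a common library total), was 406 CPM at E11.5 (391 to 422) and 293 CPM at E10.5 (280 to 306), and a member held a median of 6 UMIs at each stage. Krt18, a keratin of simple epithelia, stood at 316 CPM at E11.5 and 320 CPM at E10.5. Krt19, another such keratin, stood at 233 CPM at E11.5 and 48.9 CPM at E10.5, with a median of 3 UMIs per member at E11.5 and 0 at E10.5. The keratin condition was therefore met mostly through Krt18 at E10.5 and through both keratins at E11.5.

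The edge of the gate was gradual. The 89 members at E11.5 and 61 at E10.5 with exactly 3 UMIs of Upk3b had 340 and 239 CPM of Wt1. The barcodes with 2 UMIs of Upk3b that met every other condition numbered 92 at E11.5 and 69 at E10.5, with 336 and 195 CPM of Wt1. Those with 1 UMI numbered 118 and 108, with 262 and 166 CPM of Wt1. A further 42 barcodes at E11.5 and 27 at E10.5 missed the gate with 1 keratin UMI. The conditions on the gonadal gene Nr5a1 and the stomach gene Barx1 each barred cells on their own, 30 at E11.5 and 87 at E10.5 for Nr5a1 and 47 at E11.5 and 20 at E10.5 for Barx1.

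Wt1, a zinc finger transcription factor of the coelomic lining, was no part of the gate and so gave a check of the label. It lies on chromosome 2 from 105126529 to 105173616 (GRCm38). It stood at 338 CPM in members and 123 CPM in all other filtered barcodes at E11.5, and at 290 CPM in members and 80.9 CPM in other barcodes at E10.5. At least 1 Wt1 UMI was found in 97.2% of members at E11.5 and 98.3% at E10.5. The same share was 15.3% at E11.5 and 10.4% at E10.5 in barcodes with at least 2 UMIs of the neural crest gene Sox10, although these were deeper (median 23649 UMIs at E11.5 and 24926 at E10.5). With every cell thinned to 5000 UMIs, Wt1 was found in 78.0% of members and 8.87% of the Sox10 barcodes at E11.5, and in 73.4% and 2.69% at E10.5. Wt1 was also high, at 383 CPM at each stage, in the Nr5a1 barcodes of the gonadal and adrenal primordium, so it does not by itself separate the members from that neighbour. Msln, which encodes the adult mesothelial protein mesothelin, was at 0.445 CPM at E11.5 and had no UMI at E10.5, which allows up to 0.464 CPM.

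Genes outside the gate were compared between members and all other filtered barcodes. Of 10722 genes with at least 50 member UMIs over both libraries, 251 (2.34%) were at least 2-fold higher in members in both libraries and 197 (1.84%) were at least 2-fold lower, 4.18% in all. The gate genes were left out of these counts. The 20 genes ranked highest by the smaller of the 2 ratios, among genes with at least 50 CPM in members of both libraries, are shown in the plot of member and other-barcode levels.

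**Figure D1:**
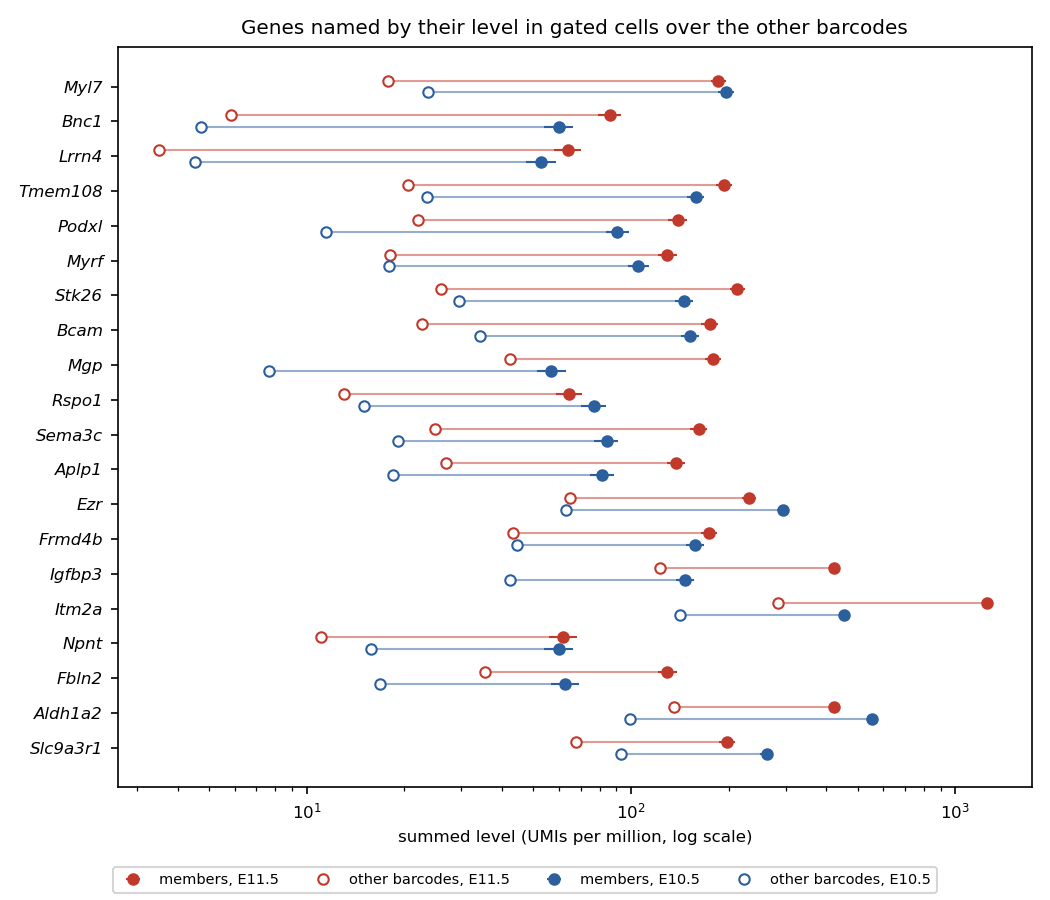
Summed levels of the 20 highest-ranked genes in CPM on a log axis, with members (filled) and all other filtered barcodes (open) at E11.5 (red) and E10.5 (blue). Bars on the filled points are exact 95% Poisson intervals, and every filled point lies to the right of its open point, with the widest gap for Lrrn4 at E11.5 (63.7 against 3.51 CPM).

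Bnc1 encodes basonuclin 1, a zinc finger factor of epithelia. It stood at 86.0 CPM in members and 5.82 CPM in other barcodes at E11.5, and at 59.8 and 4.72 CPM at E10.5. Lrrn4, a leucine-rich repeat membrane protein long used to mark mesothelium, stood at 63.7 CPM in members and 3.51 CPM in other barcodes at E11.5, and at 52.9 and 4.54 CPM at E10.5. Myrf, a transcription factor anchored in the membrane, was at 129 CPM in members against 18.0 CPM in other barcodes at E11.5, and at 105 against 17.9 CPM at E10.5. The members of both stages thus stood several-fold above the other barcodes in these 3 genes.

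Several of the ranked genes belong to the apical and basal faces of the cell. Podxl, the sialomucin podocalyxin of apical membranes, was at 139 CPM in members and 22.0 CPM in other barcodes at E11.5, and at 90.7 and 11.4 CPM at E10.5. Ezr encodes ezrin, which ties the apical membrane to actin, and Slc9a3r1 encodes a scaffold that binds ezrin. Ezr was at 231 CPM in members against 65.1 CPM in other barcodes at E11.5, and at 294 against 63.2 CPM at E10.5. On the basal side, Bcam, a laminin receptor, was at 175 CPM in members against 22.7 CPM in other barcodes at E11.5, and at 152 against 34.3 CPM at E10.5. Npnt encodes nephronectin, an integrin ligand of basement membranes, and was at 61.8 CPM in members at E11.5 and 59.8 CPM at E10.5, against 11.1 and 15.8 CPM in other barcodes.

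The ranked genes also held secreted proteins, an enzyme of retinoic acid synthesis and a myosin chain. Aldh1a2, the main enzyme that makes retinoic acid in the embryo, was at 423 CPM in members and 135 CPM in other barcodes at E11.5, and at 555 and 99.1 CPM at E10.5. Igfbp3, which binds insulin-like growth factors, was at 424 CPM in members at E11.5 and 146 CPM at E10.5, against 123 and 42.3 CPM in other barcodes. Mgp, a matrix protein that inhibits calcification, was at 179 CPM at E11.5 and 56.8 CPM at E10.5, and it was found in 42.6% of members at E11.5 and 17.6% at E10.5, and in 6.40% and 0.673% of the Sox10 barcodes. Myl7, the regulatory light chain of atrial myosin, had similar summed levels, 186 CPM at E11.5 and 196 CPM at E10.5. It was found in 34.3% of members at E11.5 and 74.5% at E10.5, so its UMIs came from a smaller share of cells at E11.5. In the Sox10 barcodes Myl7 was found in 6.40% of cells at E11.5 and 8.75% at E10.5.

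The promoters of Upk3b, which led the gate, and of Lrrn4 and Bnc1, the ranked genes furthest above the other barcodes, are shown as the 250 bases before the RefSeq start of each gene on GRCm38.p6, each read 5′ to 3′ on its own strand. Capitals mark GGAATG or, read from the other strand, CATTCC, the core of the sites bound by TEAD factors. The first lies at chr5:136038246-136038495 on the plus strand, the second at chr2:132880863-132881112 on the minus strand and the third at chr7:81992300-81992549 on the minus strand.
Upk3b: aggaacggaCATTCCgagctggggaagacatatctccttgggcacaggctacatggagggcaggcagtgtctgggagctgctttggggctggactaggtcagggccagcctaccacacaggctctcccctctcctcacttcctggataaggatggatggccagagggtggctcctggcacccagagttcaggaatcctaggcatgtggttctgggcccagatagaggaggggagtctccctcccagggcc
Lrrn4: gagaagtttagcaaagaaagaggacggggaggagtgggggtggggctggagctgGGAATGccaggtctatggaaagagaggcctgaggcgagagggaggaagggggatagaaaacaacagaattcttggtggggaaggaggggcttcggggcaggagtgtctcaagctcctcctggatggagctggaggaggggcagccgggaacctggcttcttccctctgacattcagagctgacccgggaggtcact
Bnc1: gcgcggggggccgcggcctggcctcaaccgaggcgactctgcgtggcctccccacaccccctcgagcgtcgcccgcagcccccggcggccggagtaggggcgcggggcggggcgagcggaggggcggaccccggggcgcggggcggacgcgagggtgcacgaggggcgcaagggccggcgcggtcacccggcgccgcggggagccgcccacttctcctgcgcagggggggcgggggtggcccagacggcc

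Upk3b and Lrrn4 each held 1 match in this window and Bnc1 held none. Promoters were listed for 17 of the 20 ranked genes, and 3 of their 21 promoter windows held GGAATG on either strand (14.3%), against 12.6% of 32851 listed promoters. AGATAA, a core bound by GATA factors, was held by 1 of the 21 (4.76%), against 9.99% of all listed promoters. A match is a description of the letters and not a site shown to be bound.

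By a count that needs both libraries, the members were closest to the gonadal and adrenal primordium among 5 other groups set by marker genes. Of the 20 ranked genes, 4 were at least 2-fold higher in members than in barcodes with at least 2 Nr5a1 UMIs (229 cells at E11.5 and 137 at E10.5) in both libraries. The same count was 16 of 20 against visceral mesenchyme with Barx1 and Foxf1 (126 and 42 cells), 15 against nephric cells with Pax2 and Pax8 (97 and 292 cells), 19 against the Sox10 barcodes (203 and 297 cells) and 18 against endothelium with Cdh5 and Pecam1 (205 and 275 cells). The 4 genes past 2-fold against the gonadal group were Mgp, Igfbp3, Itm2a and Npnt. The low count came from E10.5, where Upk3b was found in 70.1% of the gonadal barcodes, against 8.73% at E11.5. At E11.5 alone, most of the 20 genes were at least 2-fold higher in members than in gonadal barcodes. By the count at E11.5 alone, the gonadal group was not the closest. Bnc1 and Aldh1a2 are given as examples. Bnc1 was at 86.0 CPM in members against 5.68 CPM in gonadal barcodes at E11.5, and at 59.8 against 27.6 CPM at E10.5. Aldh1a2 was at 423 CPM in members against 68.4 CPM in gonadal barcodes at E11.5, and at 555 against 507 CPM at E10.5. The groups held no members, and all but the gonadal one were capped in Upk3b, so these counts describe the rules as well as the cells.

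Between the stages, 786 of 10722 genes (7.33%) were at least 2-fold higher in members at E11.5 and 170 (1.59%) at least 2-fold lower, 8.92% in all. The median log2 ratio of all these genes was 0.10 in members and 0.07 in the other barcodes. Of the 786 higher genes, 334 were also at least 2-fold higher at E11.5 in the other barcodes, and of the 170 lower genes, 60 were also at least 2-fold lower there. A 2-fold difference is used here as a size, not as a test. The plot of stage ratios sets each gene's ratio in members beside its ratio in the other barcodes.

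**Figure D2:**
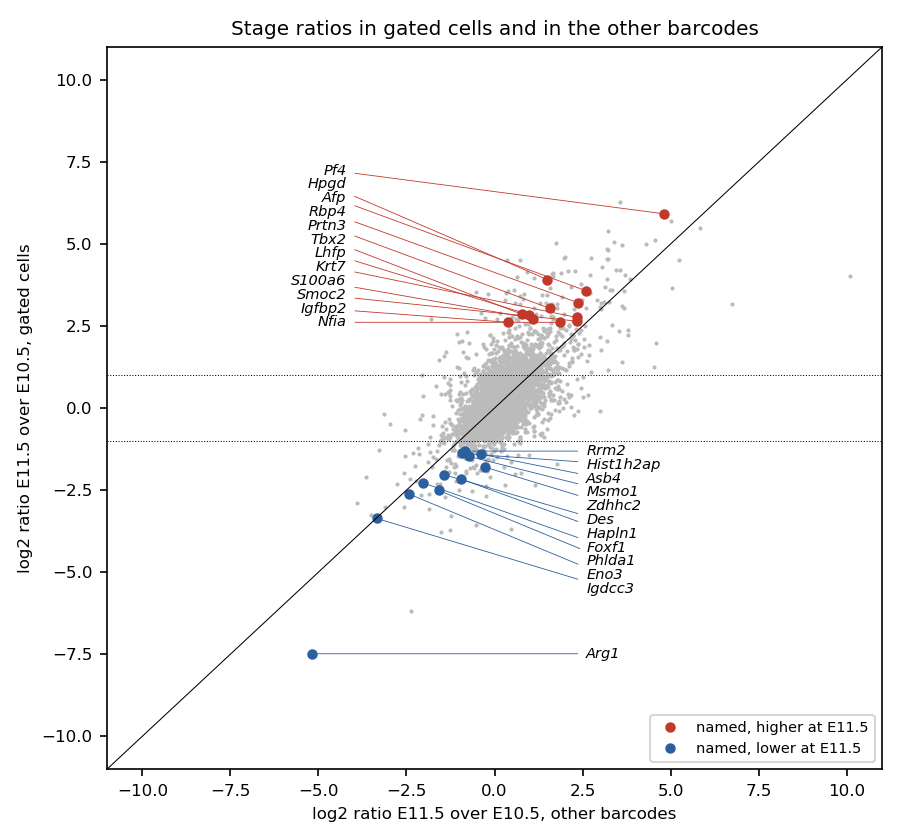
Log2 ratio of E11.5 over E10.5 in the gated cells (y axis) against the same ratio in all other filtered barcodes (x axis), 1 point per gene, with the 12 genes named in each direction in colour. Dotted lines mark a 2-fold ratio and the diagonal marks equal ratios, a sum of 0 was read as 3 counts, and Igfbp2 lies far above the diagonal (2.61 against 0.39) while Igdcc3 lies on it (-3.36 against -3.35).

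Among the genes with the largest ratios, Igfbp2, a binding protein for insulin-like growth factors, was at 395 CPM in members at E11.5 and 64.6 CPM at E10.5, a log2 ratio of 2.61 (2.46 to 2.76) against 0.39 in the other barcodes. Tbx2, a T-box repressor, was at 60.6 CPM at E11.5 and 8.36 CPM at E10.5 (log2 ratio 2.86, 2.45 to 3.30), against a ratio of 0.78 in the other barcodes. Hpgd encodes the enzyme that inactivates prostaglandins. It was at 53.6 CPM in members at E11.5 and 3.56 CPM at E10.5, and at 19.5 and 6.90 CPM in the other barcodes. Smoc2, Nfia, S100a6 and Lhfp had log2 ratios between 2.61 and 2.85 in members, and between 0.97 and 2.34 in the other barcodes.

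Among the lower genes, Arg1, the arginase that splits arginine into ornithine and urea, had 3 UMIs in members at E11.5 and 515 at E10.5. This was 0.445 CPM (0.0917 to 1.30) at E11.5 and 79.7 CPM (73.0 to 86.9) at E10.5. Thinned to 5000 UMIs, Arg1 was found in 0.253% of members at E11.5 and 22.4% at E10.5, against 0.493% and 6.40% of the Sox10 barcodes. The other barcodes also had less Arg1 at E11.5, 1.43 CPM against 51.8 CPM at E10.5, so the difference was not limited to members. Igdcc3, a cell surface immunoglobulin protein, and Eno3, the muscle form of enolase, were lower in members by much the same ratio as in the other barcodes (-3.36 and -2.62 on the log2 scale in members, -3.35 and -2.42 in the others). Zdhhc2, a protein palmitoyltransferase, had a log2 ratio of -1.81 in members and -0.26 in the other barcodes. Hist1h2ap was lower by 1.38 on the log2 scale, but it belongs to a family of nearly identical histone genes whose reads may be split between copies.

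The counts for each gene list below stand beside shares of 7.33% at least 2-fold higher and 1.59% at least 2-fold lower over all 10722 genes. Of 17 listed surface and secreted proteins of mesothelium that could be compared, 15 were higher at E11.5, 9 of them at least 2-fold, and none was at least 2-fold lower. Their median log2 ratio was 1.15 in members and 0.95 in the other barcodes, and in members 0.38 with barcodes thinned to 5000 UMIs before the gate and 0.55 over genes with at least 200 UMIs. Muc16, the large mucin known as CA125, was at 37.8 CPM in members at E11.5 (33.3 to 42.7) and 2.48 CPM at E10.5 (1.42 to 4.02). In thinned cells it was found in 18.0% of members at E11.5 and 1.03% at E10.5. It was found in none of the 203 Sox10 barcodes at E11.5 and none of the 297 at E10.5, which allows shares of up to 1.48% and 1.01%. Upk1b, a tetraspanin partner of uroplakins, was at 65.2 CPM at E11.5 and 17.8 CPM at E10.5 (log2 ratio 1.87, 1.57 to 2.18). Alcam, a cell adhesion protein of mesothelium, was at 261 CPM at E11.5 and 73.2 CPM at E10.5. Muc16, Upk1b and Alcam had similar stage ratios in the other barcodes (3.83, 1.90 and 1.64 on the log2 scale), at levels of 1.52, 2.89 and 102 CPM there at E11.5. Lrrn4 (0.27), Podxl (0.62) and Rspo1 (-0.25), a secreted enhancer of Wnt signalling, had smaller log2 ratios in members.

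Of 18 listed keratin, junction and polarity genes, 11 were higher at E11.5 and 5 at least 2-fold higher, and their median log2 ratio was 0.32 in members and 0.04 in the other barcodes. Krt7, a keratin that pairs with Krt19 in many simple epithelia, was at 133 CPM in members at E11.5 and 19.7 CPM at E10.5 (log2 ratio 2.76, 2.49 to 3.04). In thinned cells Krt7 was found in 41.0% of members at E11.5 and 7.93% at E10.5, and in 0.985% of the Sox10 barcodes at E11.5. Krt8, the usual partner of Krt18, was at 104 CPM at E11.5 and 112 CPM at E10.5. The junction genes Cdh2, Jup and Tjp1 had log2 ratios of 0.34, 0.16 and 0.65, while the desmosome gene Dsp had -0.45. Crb2, which sets apical polarity, was at 28.2 CPM in members at E11.5 and 38.5 CPM at E10.5, against 3.42 and 5.82 CPM in other barcodes. Cdh1, the cadherin of most epithelia, was at 1.78 CPM at E11.5 and 0.619 CPM at E10.5 and was found in 0.752% and 1.03% of members. Cldn7 (log2 ratio 1.60) and Cldn4 (3.55) were higher at E11.5, but Cldn7 was found in 1.00% of members and Cldn4 in 1.25%. After leaving out members with at least 2 UMIs of marker sets of other cell types, of which 1 set held both genes, Cldn7 was at 0.172 CPM at E11.5 and 0.174 CPM at E10.5, and Cldn4 at 0.516 CPM and 0.

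Of 24 listed transcription factors of mesothelium and coelomic epithelium, 11 were higher and 13 lower at E11.5, with 3 and 6 past 2-fold and a median log2 ratio of -0.16 in members and 0.28 in the other barcodes. The members' median was 0.06 with at least 5 UMIs of Upk3b, 0.04 with barcodes thinned before the gate and 0.06 over genes with at least 200 UMIs. Emx2, a homeobox factor of the urogenital coelomic epithelium, was at 145 CPM in members at E11.5 and 50.8 CPM at E10.5 (log2 ratio 1.51, 1.33 to 1.70). In thinned cells it was found in 46.3% of members at E11.5 and 15.9% at E10.5, and in 4.43% and 1.35% of the Sox10 barcodes. Zfpm2, a cofactor of GATA factors, and Bnc2, the relative of Bnc1, were also more than 2-fold higher (1.22 and 1.05). Factors past 2-fold lower included Hand1 (-3.55), Foxf1 (-2.28), Lhx2 (-1.81), Tbx5 (-1.69) and Isl1 (-1.59).

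Foxf1, a forkhead factor of the splanchnic mesoderm around the gut, was at 13.3 CPM in members at E11.5 and 64.6 CPM at E10.5, and the other barcodes had a ratio nearly as low (-2.04). Hand1, a helix-loop-helix factor of lateral mesoderm, was at 2.96 CPM at E11.5 and 34.8 CPM at E10.5, with a ratio of -0.52 in the other barcodes. Gata4, which is needed for liver mesothelium and gonad formation, was at 40.9 CPM at E11.5 and 70.9 CPM at E10.5, while its relative Gata6 was at 209 CPM and 215 CPM. The other barcodes had more Gata4 at E11.5, with a log2 ratio of 0.37 there against -0.79 in members. Wt1, Gata6, Meis2 and Nr2f2, the last being an orphan nuclear receptor, had log2 ratios between -0.04 and 0.45.

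The Hox genes, whose order along each chromosome cluster follows the head-to-tail order of the body, were split by position. Genes of paralogue groups 1 to 5 together stood at 495 CPM in members at E11.5 (479 to 512) and 646 CPM at E10.5 (626 to 665). Groups 6 to 8 stood at 561 CPM at E11.5 and 417 CPM at E10.5, and groups 9 to 13 at 147 CPM (138 to 157) at E11.5 and 72.3 CPM (65.9 to 79.2) at E10.5. The log2 ratios were -0.38, 0.43 and 1.03 in members and -1.06, -0.33 and 0.32 in the other barcodes, so the same order held in both. Of 25 Hox genes with enough UMIs, 5 were at least 2-fold higher and 5 at least 2-fold lower.

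**Figure D3:**
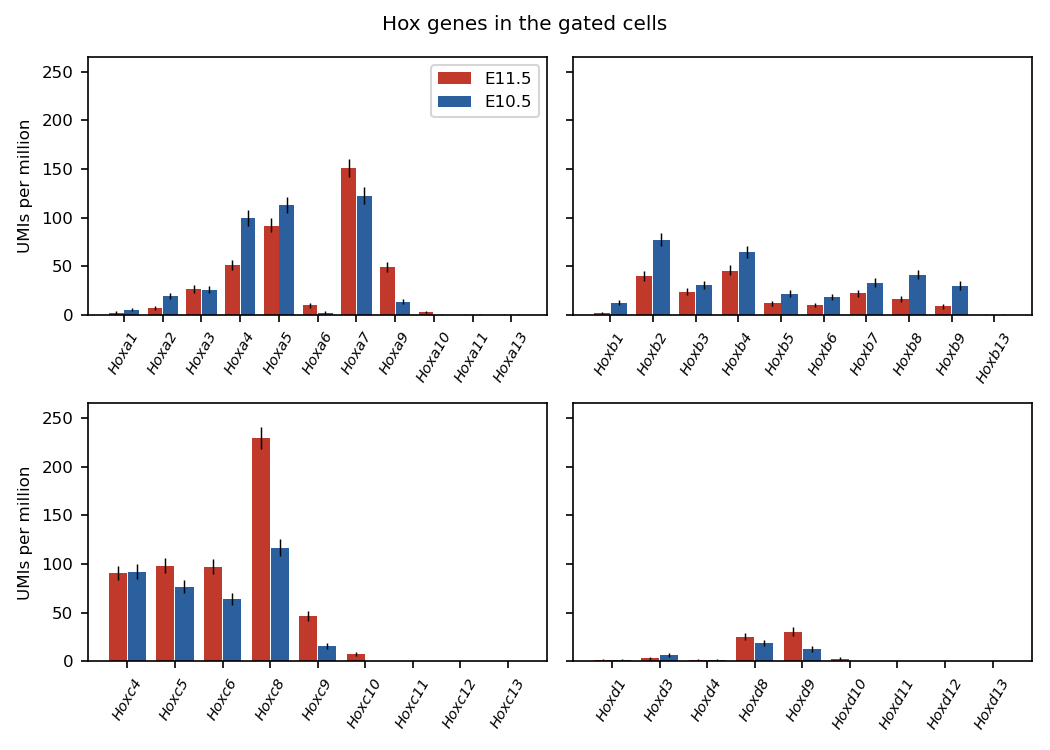
Levels of the Hox genes in the gated cells in CPM, with 1 panel for each chromosome cluster and genes in order of paralogue group, at E11.5 (red) and E10.5 (blue). Error bars are exact 95% Poisson intervals, the highest bar is Hoxc8 at E11.5 (229 CPM, against 117 CPM at E10.5), and Hoxa9 and Hoxc9 were higher at E11.5 while Hoxb9 was lower.

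The split did not hold for every cluster. Hoxa9 was at 48.8 CPM at E11.5 and 13.6 CPM at E10.5, Hoxc9 at 46.5 and 15.3 CPM, and Hoxd9 at 30.4 and 12.7 CPM. Hoxb9 went the other way, with 8.60 CPM at E11.5 and a log2 ratio of -1.80, as did Hoxb8 with 16.4 CPM at E11.5 and 41.3 CPM at E10.5. Hoxc10 had 51 UMIs in members at E11.5 and none at E10.5, a log2 ratio of at least 4.02 when 0 is read as 3 counts over the group. At the front of the clusters, Hoxb1 was at 1.63 CPM at E11.5 and 12.2 CPM at E10.5, and Hoxa2 at 6.82 and 19.0 CPM.

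The genes of the retinoic acid pathway did not move together. Of 13 compared, 9 were higher and 4 lower at E11.5, 4 were at least 2-fold higher, and the median log2 ratio was 0.44 in members and 0.45 in the other barcodes. With barcodes thinned before the gate the members' median was -0.21. Aldh1a2 had a ratio of -0.39 (-0.46 to -0.32) in members and 0.45 in the other barcodes. Rdh10, which makes the retinaldehyde that Aldh1a2 uses, was at 42.5 CPM at E11.5 and 10.7 CPM at E10.5 (log2 ratio 1.99, 1.61 to 2.39), with a ratio of 0.46 in the other barcodes. Rarb, a retinoic acid receptor that is itself induced by retinoic acid, was at 55.0 CPM at E11.5 and 32.2 CPM at E10.5. The degrading enzymes Cyp26a1 and Cyp26b1 were at 0.296 and 1.93 CPM at E11.5 and at 0.310 and 4.02 CPM at E10.5.

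All 19 basement membrane and receptor genes that could be compared had a higher level at E11.5, 6 of them at least 2-fold, with a median log2 ratio of 0.78 in members and 0.44 in the other barcodes. Frem2, an extracellular protein that anchors epithelia to the matrix, was at 39.9 CPM in members at E11.5 (log2 ratio 1.92, 1.53 to 2.33), with a ratio of 0.05 in the other barcodes. Its partner Fras1 was at 136 CPM at E11.5 and 73.7 CPM at E10.5. Lama5, the laminin chain of mature epithelial basement membranes, was at 37.9 CPM at E11.5 and 12.7 CPM at E10.5, and in the other barcodes at 6.16 and 3.58 CPM. Itga3, part of a laminin receptor, was at 40.6 CPM in members at E11.5 and 20.3 CPM at E10.5.

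Of 28 growth factor and guidance ligands, 23 were higher at E11.5, 12 at least 2-fold, and 2 were at least 2-fold lower, with a median log2 ratio of 0.86 in members and 0.50 in the other barcodes. Wnt5a, a ligand of noncanonical Wnt signalling, was at 44.3 CPM in members at E11.5 (39.4 to 49.6) and 7.28 CPM at E10.5 (5.35 to 9.68), with a log2 ratio of 2.61 against 0.50 in the other barcodes. Rspo3, which raises Wnt signals at the receptor, was at 107 CPM at E11.5 and 28.9 CPM at E10.5. Pdgfc, a ligand of PDGF receptor alpha, was at 123 CPM at E11.5 and 44.9 CPM at E10.5, a log2 ratio of 1.45 against -0.09 in the other barcodes. Efnb2, the ligand ephrin B2, had a log2 ratio of 1.67 in members and -0.08 in the others. Hgf, the growth factor of hepatocytes, was at 45.6 CPM in members at E11.5 and 13.2 CPM at E10.5, and at 14.7 and 7.51 CPM in other barcodes. Fgf9, an FGF that mesothelium of lung and gut sends to the mesenchyme, had a log2 ratio of 0.58 in members.

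The 2 ligands past 2-fold lower at E11.5 were Fgf10, at 4.59 CPM and 16.4 CPM at E10.5, and Bmp2, at 2.52 and 6.35 CPM. Bmp4 was at 36.0 CPM at E11.5 and 69.7 CPM at E10.5, a log2 ratio of -0.95 against 0.38 in the other barcodes. Among 25 receptors and pathway targets, 3 were at least 2-fold higher and 1 at least 2-fold lower, and the median ratio was -0.08 in members and -0.15 in the other barcodes. The members' median was 0.26 with barcodes thinned before the gate. Axin2, a target of canonical Wnt signalling, was at 33.3 CPM at E11.5, with a log2 ratio of 1.60 in members and 0.24 in the others. Lef1, a transcription factor of the same pathway, had a ratio of 1.13 in members and -0.33 in the others. Id2, a target of BMP signalling, was lower at 302 CPM, against 586 CPM at E10.5. Its relatives Id1 and Id3 differed less. With members holding UMIs of other cell types left out, the log2 ratios were -0.96 for Id2, -0.02 for Id1 and -0.39 for Id3. The Wnt receptor Fzd1 was at 9.19 CPM at E11.5 and 24.3 CPM at E10.5.

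The 13 listed ligands known to act on blood cells summed to 1390 CPM in members against 1220 CPM in other barcodes at E11.5, and to 1471 against 1225 CPM at E10.5. Most of this was Dlk1, a membrane protein of the Notch ligand family, at 1183 CPM in members against 749 CPM in other barcodes at E11.5, and at 1196 against 729 CPM at E10.5. Other ligands of the list were at lower levels. Kitl, the stem cell factor that binds the receptor Kit, was at 21.9 CPM at E11.5 (18.5 to 25.8) and 53.1 CPM at E10.5 (47.6 to 59.0), while the other barcodes had 53.9 and 53.2 CPM. Its log2 stage ratio was -1.28 in members and 0.02 in the others. Cxcl12, a chemokine of stem cell niches, was at 64.6 CPM at E11.5 and 114 CPM at E10.5 in members, against 265 and 346 CPM in the other barcodes. Angpt1, the ligand of the receptor Tek, was at 11.9 CPM at E11.5 and 44.7 CPM at E10.5 in members, with a log2 ratio of -1.92 against -0.20 in the others. Thpo had no UMI in members at E11.5, which allows up to 0.445 CPM, and was at 0.464 CPM at E10.5. Of the 8 ligands with enough UMIs, 1 was at least 2-fold higher and 2 at least 2-fold lower at E11.5, against 7.33% and 1.59% of all genes. In both libraries, 0 of the 8 was at least 2-fold higher in members than in other barcodes. The share over all 10722 genes was 2.34%, so the 0 is not read as a trait of these ligands.

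**Figure D4:**
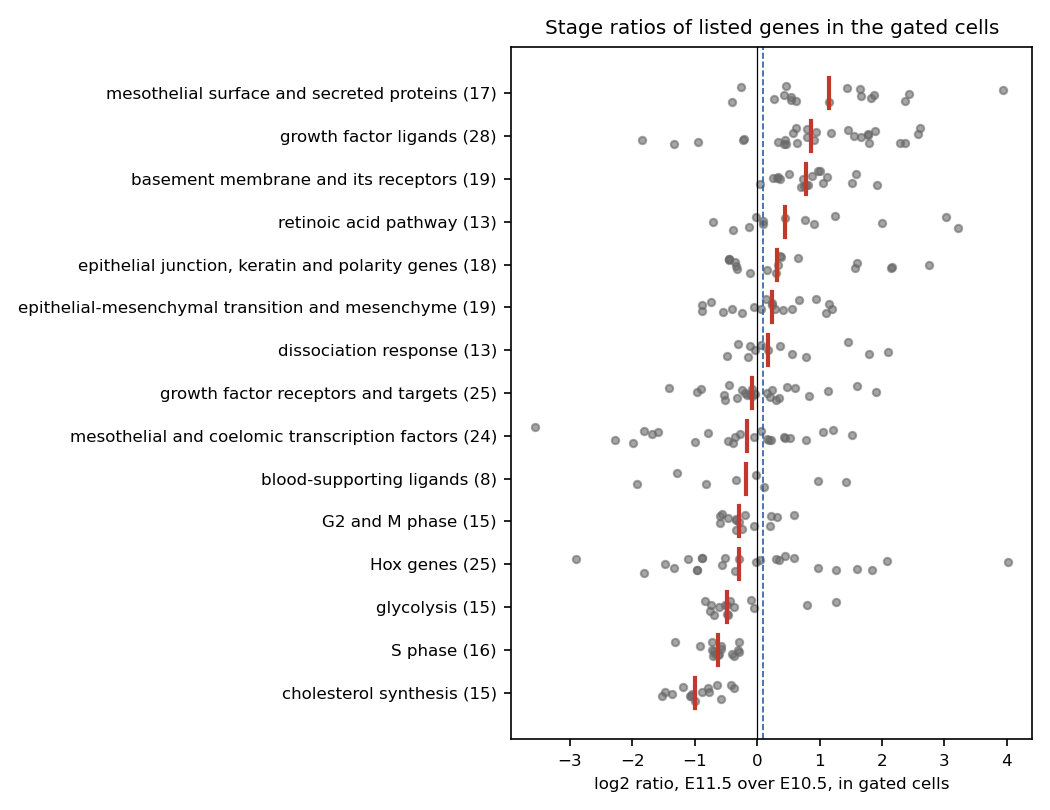
Log2 ratio of E11.5 over E10.5 in the gated cells for each gene of 15 lists, with the number of genes compared in brackets, the list's median as a red bar and the median of all 10722 genes (0.10) as a dashed line. The surface protein, ligand and basement membrane lists have medians of 1.15, 0.86 and 0.78, and the S phase and cholesterol synthesis lists lie wholly below 0.

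Genes of the mesenchymal state did not move in one direction. Of 19 compared, 12 were higher and 7 lower at E11.5, 3 of the higher ones at least 2-fold, with a median log2 ratio of 0.23 in members and 0.42 in the other barcodes. The members' median was -0.27 without the barcodes of highest doublet score and -0.09 as a mean over cells. The 3 were the collagen gene Col1a2 (405 CPM at E11.5 and 188 CPM at E10.5), the mesenchymal cadherin Cdh11 (173 and 77.9 CPM) and decorin, Dcn (122 and 53.6 CPM). The transition factors Snai1, Snai2, Zeb1 and Zeb2 had ratios between -0.25 and 0.28, and Twist1 had -0.55. Zeb2, Snai2, Acta2 and Lum were at least 2-fold lower in members than in the other barcodes in both libraries. Acta2, the smooth muscle actin, was at 88.0 CPM in members and 488 CPM in other barcodes at E11.5, and at 65.9 and 479 CPM at E10.5.

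Genes of DNA replication and of sterol synthesis were lower in the later members. All 16 S phase genes compared were lower at E11.5, with a median log2 ratio of -0.62 in members and -0.14 in the other barcodes, and only Rrm2, a subunit of ribonucleotide reductase, was past 2-fold (163 CPM at E11.5 and 406 CPM at E10.5). Of 15 genes of the G2 and M phases, 11 were lower and 4 higher, with a median of -0.29 in members and -0.19 in the others. The members' median was 0.39 when barcodes were thinned to 5000 UMIs before the gate. All 15 cholesterol synthesis genes were lower, 7 at least 2-fold, with a median of -0.99 in members and -0.65 in the others. Msmo1, a sterol oxidase, was at 58.8 CPM at E11.5 and 163 CPM at E10.5. Of 15 glycolysis genes, 13 were lower, with a median of -0.48 in members and 0.03 in the other barcodes. Ldha, which makes lactate, was at 518 CPM at E11.5 and 920 CPM at E10.5, with a ratio of -0.83 in members and -0.11 in the others. Of 13 genes of the response to tissue dissociation, 8 were higher and 5 lower, and the median was 0.17 in members and 0.60 in the others.

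RNA of other cell types was present among the members at levels that differed between the libraries. All 8 hepatoblast genes compared were at least 2-fold higher at E11.5, and the list summed to 350 CPM in members at E11.5 and 40.9 CPM at E10.5, against 4532 and 630 CPM in the other barcodes. Alb, the serum albumin of hepatoblasts, was found in 21.3% of members at E11.5 and 4.83% at E10.5, and in 20.2% and 2.36% of the Sox10 barcodes. Afp, the fetal serum protein, was at 186 CPM in members at E11.5 and 15.6 CPM at E10.5, against 2341 and 384 CPM in the other barcodes. Pf4, a platelet chemokine with the highest named stage ratio (5.92), was found in 26.8% of members at E11.5 and 3.79% at E10.5, and in 24.6% and 2.69% of the Sox10 barcodes. In thinned cells Pf4 was found in 11.1% of members and 5.42% of the Sox10 barcodes at E11.5. Its level at that stage was 112 CPM in members and 19.5 CPM in the endothelial barcodes, and most of the members' level lay in 1 subcluster. The share of members with Alb at E11.5 was close to that of the Sox10 barcodes, which should lack the gene but were deeper. Alb stood at 61.8 CPM in subcluster 1 of E11.5 and at 8.95 to 27.7 CPM in the other subclusters of that stage. The source of the Alb UMIs was not tested. Rbp4 and Prtn3, which the naming rule also chose, are genes of hepatoblasts and of granulocytes.

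The macrophage and white cell list summed to 43.4 CPM at E11.5 and 0.310 CPM at E10.5, with 6 of its 8 genes at 0 at E10.5. A wider set of 7 of these genes with the granulocyte genes Prtn3 and Mpo had at least 2 UMIs in 16 members at E11.5 and 6 at E10.5. At least 2 UMIs of any of 5 marker sets were held by 27 members (6.77%) at E11.5 and 21 (7.24%) at E10.5. With these left out, the log2 ratio of Pf4 was 3.44 and that of Afp 2.08, neither gene being in a set, while Prtn3 was itself in a set and is not read here. Pf4 at E11.5 was then at 22.7 CPM, against 112 CPM in all members, and Afp at 55.2 CPM, against 186 CPM. Much of both levels at E11.5 thus lay in the members left out. Krt7 (2.89), Muc16 (4.04), Igfbp2 (2.54), Wnt5a (2.65) and Kitl (-1.57) kept their direction and stayed past 2-fold. The endothelial list summed to 97.8 CPM at E11.5 and 90.6 CPM at E10.5 in members, against 265 and 311 CPM in the others. Gonadal and adrenal markers summed to 95.9 and 70.6 CPM, nephric markers to 48.5 and 28.9 CPM, neural crest and neuron markers to 117 and 56.2 CPM, and stellate and mural markers to 64.0 and 119 CPM. Sclerotome markers summed to 19.4 CPM at E11.5 and 93.8 CPM at E10.5, gut endoderm markers to 15.3 and 8.82 CPM, germ cell markers to 10.1 and 4.02 CPM, and skeletal muscle markers to 4.74 and 6.50 CPM. Haemoglobin made up 0.229% of member UMIs at E11.5 and 0.781% at E10.5, against 2.30% and 2.40% in the other barcodes. The part of other cells' RNA in the remaining stage ratios was not tested.

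Members of each library were clustered on their own, without the gate genes and the listed genes, into 6 subclusters at E11.5 (17 to 138 cells) and 5 at E10.5 (25 to 76 cells). The subclusters are numbered and not named, and their leading genes are a description. Wt1 was between 203 and 419 CPM in the 6 subclusters at E11.5 and between 231 and 376 CPM in the 5 at E10.5, and Bnc1 between 50.1 and 104 CPM and between 51.8 and 92.9 CPM. These values show that Wt1, the label's marker outside the gate, was present in every subcluster, as was Bnc1, a gene ranked from these same cells. They do not cover the keratins of the label.

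**Figure D5:**
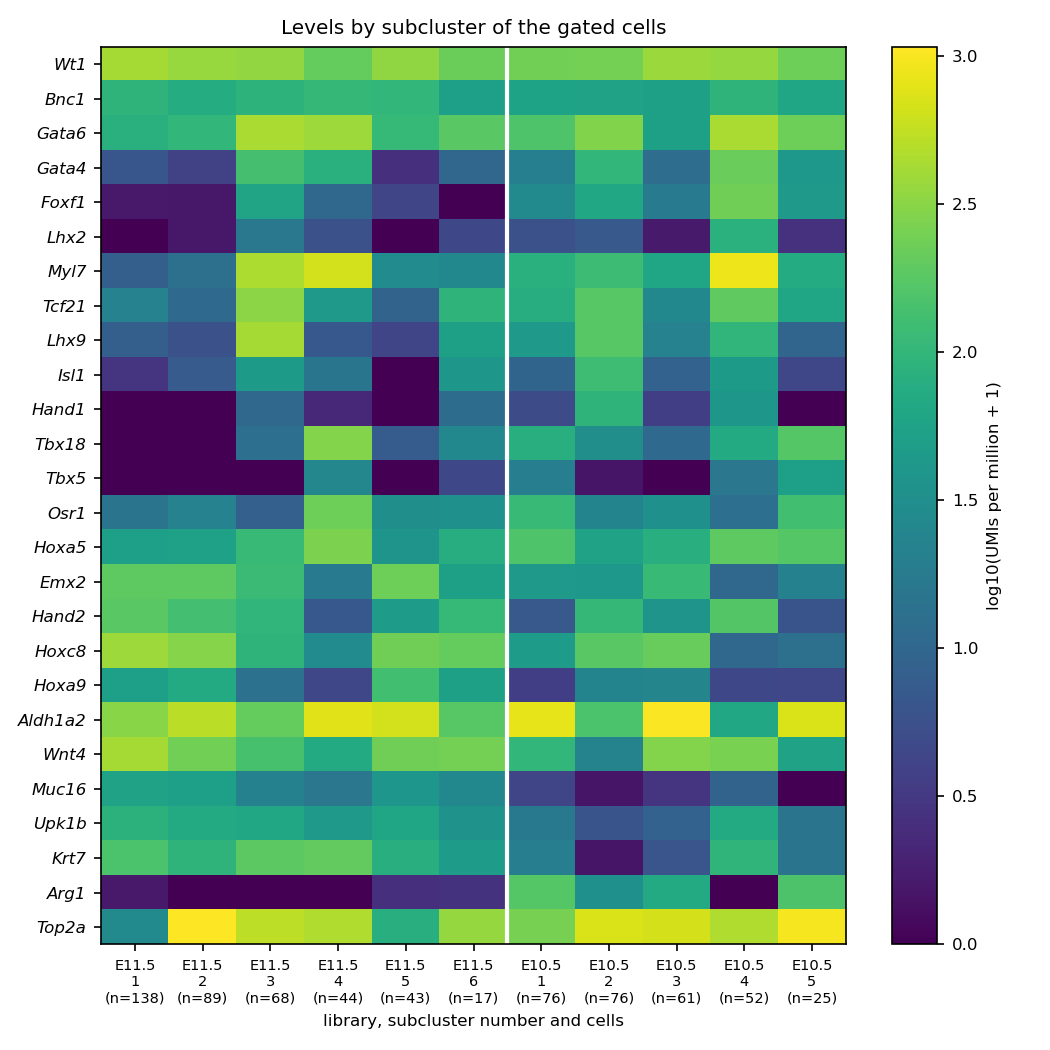
Levels of 26 genes in the 6 subclusters at E11.5 (left of the white line) and the 5 at E10.5 (right), as log10 of CPM plus 1. Wt1 and Bnc1 are present throughout, while Gata4, Foxf1, Myl7, Tcf21, Emx2, Hoxc8 and Hoxa9 differ between subclusters. High levels of these genes are not kept to separate subclusters, and subcluster 2 of E10.5 has 101 CPM of Gata4 with 177 CPM of Hoxc8.

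At E11.5, subcluster 3 (68 cells) was led by Lhx9, a homeobox factor of the early gonad and mesothelium, at 413 CPM against 10.4 CPM in the remaining members, and by Tcf21 at 318 CPM. It also had the highest Gata4 (136 CPM) and Foxf1 (57.7 CPM) of that stage, and the granulocyte genes Mpo at 177 CPM and Prtn3 at 236 CPM. Over all members of that stage, Prtn3 was found in 12.5%, and 16 members held at least 2 UMIs of the white cell set with both genes. The Mpo and Prtn3 levels may thus rest on few cells. Subcluster 4 (44 cells) was led by Tbx18, a T-box factor of the septum transversum and urogenital ridge, at 289 CPM, with Osr1 at 227 CPM, Hoxa4 at 261 CPM and Mgp at 1015 CPM. Myl7 was at 456 CPM in subcluster 3 and 664 CPM in subcluster 4, and between 7.35 and 27.8 CPM in the other 4. Subclusters 1, 2 and 5 (138, 89 and 43 cells) had 1.63 to 5.51 CPM of Gata4, 189 to 227 CPM of Emx2 and 235 to 382 CPM of Hoxc8.

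Among these 3, subcluster 1 had the lowest depth (median 10774 UMIs), little of the cell cycle gene Top2a (26.9 CPM), and the highest Krt18 (680 CPM), Pf4 (403 CPM) and Afp (612 CPM) of that stage. Its Igfbp2 was at 770 CPM and its Wnt4 at 415 CPM. Afp was found in 43.5% of the cells of subcluster 1, against 44.1% to 88.2% in the other subclusters of that stage. Subcluster 2 was led by genes of the G2 and M phases, with Cenpf at 929 CPM against 175 CPM in the remaining members. Subcluster 5 was led by Ibsp, a sialoprotein of matrix, and had the most Hpgd (167 CPM) and Hoxa9 (129 CPM). Subcluster 6 (17 cells, median 30686 UMIs) was led by genes of smooth muscle, vessels and neurons, with Acta2 at 876 CPM, Vwf at 149 CPM and Nefm at 381 CPM. Acta2 was found in 70.6% of its cells, but the endothelial gene Cdh5, at 69.8 CPM, in only 5.88%. The shares of its cells with Vwf and Nefm were not computed, so those levels may rest on few cells.

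At E10.5, subcluster 4 (52 cells) had the highest levels of Myl7 (905 CPM), Foxf1 (232 CPM), Gata4 (218 CPM), Lhx2 (84.8 CPM), Itm2a (2226 CPM) and Alcam (362 CPM). It also had the highest Krt7 (95.2 CPM), Krt19 (187 CPM) and Upk1b (70.8 CPM) of that stage, against 0.505 to 18.5, 0 to 42.6 and 5.05 to 15.9 CPM in the other 4. It had no Arg1 UMI, where the other 4 had 31.8 to 169 CPM, and its Aldh1a2 was lowest, at 63.9 CPM against 147 to 1037 CPM. Subcluster 2 (76 cells) was led by Isl1 (123 CPM), a LIM homeobox factor of lateral mesoderm, and Hand1 (91.4 CPM), with the most Bmp4 (138 CPM). Subcluster 5 (25 cells) was led by Mgp (302 CPM) and Cxcl13 (376 CPM), with Tbx5 at 50.1 CPM and Tbx18 at 171 CPM. Subcluster 1 (76 cells) held Cck at 110 CPM and the endothelial genes Emcn (48.9 CPM) and Cdh5 (19.2 CPM). Emcn was found in 6.58% and Cdh5 in 5.26% of its cells. Subcluster 3 (61 cells) held Gata2 (78.6 CPM) and the red cell gene Alas2 (55.7 CPM) together with 109 CPM of Emx2. Alas2 was found in 9.84% of the cells of subcluster 3, so the Emcn, Cdh5 and Alas2 levels rest on few cells.

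The later members' higher levels of the surface genes were not equally clear in all subclusters. Muc16 reached 55.1 CPM at E11.5, and all 6 subclusters of that stage lay above the 5 at E10.5, which had 0 to 8.13 CPM. Krt7 was between 46.6 and 199 CPM at E11.5 and between 0.505 and 95.2 CPM at E10.5, and Upk1b between 34.0 and 86.3 CPM and between 5.05 and 70.8 CPM, so these ranges overlapped through subcluster 4 of E10.5. Arg1 was between 0 and 1.79 CPM at E11.5 and between 0 and 169 CPM at E10.5. Igfbp2 was between 114 and 770 CPM at E11.5 and between 20.7 and 97.6 CPM at E10.5, and Tbx2 between 8.17 and 122 CPM and between 2.64 and 17.0 CPM. The part of the coelomic lining taken and the stage cannot be told apart in these ratios.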

How the data were processed

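The authors deposited counts, as whole numbers of UMIs for each gene in each barcode, for 2 libraries. Per the labels' protocols, tissue was dissociated with collagenase/dispase and trypsin, and libraries used the 10x 3' v3.1 kit. Per the submitters' processing notes, the authors used Cell Ranger 5.0.0 and mm10 (GRCm38). Of 31053 genes, 30934 identifiers matched GENCODE vM21 for positions, and promoters came from RefSeq on GRCm38.p6.

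The members, gene lists, groups and alternatives were chosen with earlier results of these data known. UMIs were summed over members per library and given as CPM over all genes except haemoglobin and mitochondrial genes. Log2 ratios are E11.5 over E10.5, or members over other barcodes, for genes with at least 50 UMIs, and a sum of 0 was read as 3 counts. Intervals at 95% are Clopper-Pearson for shares, Poisson for levels and conditional for ratios. Only the conditional interval was run on simulated data. Those data were Poisson counts, the error that the interval assumes, so the run cannot speak to the spread between cells. Genes named against other barcodes had at least 50 CPM in both libraries and were the 20 with the highest smaller ratio (pseudocount 5 CPM). For stages, the 12 each way with the interval bound furthest from 0 were named among genes with at least 50 CPM at 1 stage. Listed genes served as examples, and Mpo, Cck and subcluster genes were picked after their values were seen.

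Scrublet marked 0% of barcodes as doublets, so it did not work and no doublets were removed. Of members, 25 (6.27%) at E11.5 and 24 (8.28%) at E10.5 were among the 8% of barcodes with the highest scores. Subclusters used Leiden at resolution 0.5 with 1500 variable genes, 20 principal components and 15 neighbours. Python 3.11.15, numpy 2.4.6, scipy 1.17.1, pandas 2.3.3, scanpy 1.11.5, anndata 0.12.19, leidenalg 0.10.2 and matplotlib 3.10.9 were used. Total UMIs per library and per-cell depth are given with the results, and depth limits low genes most. Alternatives varied the gate, filter, scaling and gene minimum. Some listed genes were counted in their lists but are not reported here by name.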

Additional observations from a re-analysis of the deposited data

Results flagged for a closer look

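Cldn4, a tight junction gene, stood on opposite sides of the other barcodes at the 2 stages. Its log2 ratio of members over other barcodes was 2.28 at E11.5 and -1.80 at E10.5. It was found in 1.25% of members at E11.5 and 0.690% at E10.5, so the ratios rest on few cells, and the difference between the stages was not tested.

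Tbx2, a T-box repressor, was the other listed or named gene with a 2-fold difference in opposite directions. Its log2 ratio of members over other barcodes was 1.07 at E11.5 and -1.01 at E10.5. The difference was not tested.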

How the results depend on the processing

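Each result was recomputed under alternatives to the gate, the filter, the scaling and the gene minimum. The share of members at E11.5 and E10.5 was 5.51% and 4.68% with at least 2 UMIs of Upk3b, 2.84% and 2.41% with at least 5, and 5.41% and 4.37% with no keratin condition. With barcodes thinned to 5000 UMIs before the gate, it was 1.04% and 0.701% (85 and 48 cells), a fold of 1.48. That thinning also gave 340 genes at least 2-fold higher at E11.5, and 129 higher and 24 lower in members than in other barcodes. Genes with at least 20 UMIs gave 1315 higher and 290 lower between stages and 428 lower against other barcodes. Genes with at least 200 UMIs gave 296 and 80 between stages and 138 higher and 43 lower against other barcodes. At least 5 UMIs of Upk3b gave 130 lower against other barcodes. The cause of these shifts was not tested, beyond the number of cells and genes each setting leaves.

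Of the recomputed list medians, 178 stayed within the counting-error interval of the list's middle gene or genes, and 15 left it. A further 2 changed sign where that interval excluded 0, both with the thinned gate: Hox genes to 0.47 and the G2 and M phase genes to 0.39. Some medians near 0 also changed sign, for example that of the transcription factors to 0.06 with at least 5 UMIs of Upk3b, that of the mesenchymal genes to -0.27 without the highest doublet scores, that of the receptors and targets to 0.26 and that of the retinoic acid genes to -0.21 with the thinned gate. At resolution 1.0 there were 9 subclusters at E11.5 and 9 at E10.5, against 6 and 5 in the main setting. With 30 neighbours there were 4 at E11.5 and 5 at E10.5. The alternative without members holding UMIs of other cell types was chosen after seeing the data. No paired analysis was possible because each stage has 1 library. Depth limits what can be said of genes near 1 UMI per cell, and no replicate error could be estimated.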
